A study of Mus musculus with 6 samples.

Results

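Potassium channel subunit genes were described as the rows of the gene count table that were annotated as protein-coding and carried a symbol starting with Kcn. Of 94 such rows, 90 were taken, since Kcnj2, Kcnj8, Kcnj10 and Kcne3 were left out, and the table held 54532 genes in all. The rule itself used names and no measured values, though it was set with earlier results of these data known. Messenger RNA had been sequenced from whole retina at postnatal day 17 (P17), with 3 samples from mice with OIR, the common short form of oxygen-induced retinopathy, and 3 from normal mice of the same age; both groups were wild type and of the strain C57BL/6J. In that model pups are exposed to high oxygen and returned to room air, after which vessel loss leaves the retina hypoxic and abnormal vessels grow. Neither the dose and days of oxygen nor the number of animals behind each library could be taken from the labels. Depth was 15818168 to 17163513 counts per library, and 74 of the 90 genes had enough counts to be tested. Levels are given for each library as CPM, the counts divided by library size after scaling with the TMM method.

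Potassium channels let potassium leave cells, or enter them in the case of inward rectifiers, and so set the resting potential and shape the time course of electrical signals. Pore-forming subunits fall into voltage-gated (Kcna to Kcnd, Kcnq and Kcnh), inward rectifier (Kcnj), two-pore-domain (Kcnk) and calcium- or sodium-activated (Kcnn, Kcnma1, Kcnt) families, while silent and accessory subunits change the gating, trafficking or pharmacology of the pores they join. In retina, photoreceptors use a voltage-gated potassium current of the inner segment to shape the light response, inner retinal neurons use fast and A-type currents, and glia and vessel wall cells carry inward rectifiers and calcium-activated channels.

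Most of the potassium channel genes that changed were lower in OIR retina. Of the 74 tested, 28 fell and 5 rose at an adjusted p under 0.05 in edgeR's quasi-likelihood test, which is 37.8% and 6.76%. Over all 17108 genes tested, 8.73% were called lower and 11.1% higher, and 19.8% were called in either direction, against 44.6% of the members. The median log2 fold change of the tested members was −0.26, beside 0.01 over all genes tested. Falls were shallower than rises, both among the members and over all genes tested. The median log2 change was −0.57 among the 28 lower members and −0.42 among all lower genes. It was 1.87 among the 5 higher members and 0.89 among all higher genes. At least 2-fold changes were found in 6 called members, of which 4 were higher (Kcne4, Kcnk6, Kcnq1 and Kcnmb1) and 2 lower (Kcnj13 and Kcne1l). Over all 17108 genes tested, 970 were called with at least 2-fold changes, 854 of them higher and 116 lower. Kcne4, Kcnk6 and Kcnmb1 did not reach the filter's minimum count of 10 in every normal library, nor Kcnj13 in every OIR library. These genes were thus tested only because of the group where they were high. How many of the 970 entered in that way was not counted. The values of the 3 OIR libraries did not overlap those of the 3 normal libraries for 40 of the 74 tested members, or 54.1%, beside 36.8% of all genes tested. In 33 of these the OIR libraries were the lower ones. For a single gene the exact two-sided permutation test over 3 against 3 libraries cannot give a p below 0.1.

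**Figure D1:**
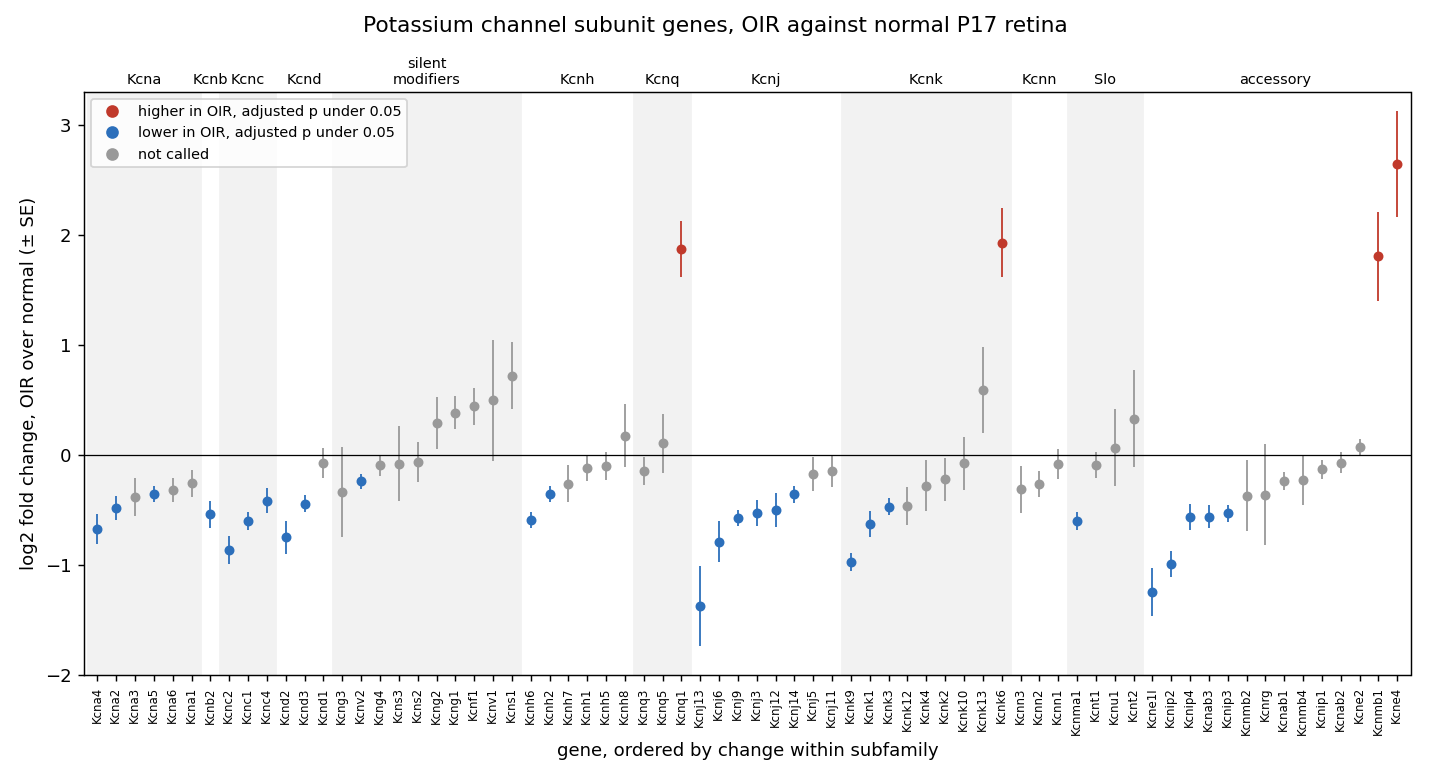
Log2 fold change of OIR over normal retina with its standard error (vertical axis) for 70 of the 74 tested subunit genes, grouped by subfamily and ordered by change within it (horizontal axis); red marks genes called higher, blue genes called lower and grey genes not called. Blue points lie below 0 in most subfamilies, and the 4 red points belong to Kcnq, Kcnk and the accessory subunits.

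Most of the falls were in the better-expressed members, and the same held over all genes tested. Of the 46 members with a mean of at least 10 CPM over the 6 libraries, 25 fell. Of all 1493 genes called lower, 787 lay between 10 and 100 CPM and 520 at 100 CPM and over. Between 10 and 100 CPM, 51.4% of 37 members were called lower, beside 9.34% of the 8424 genes tested in that range. At 100 CPM and over, 6 of 9 members fell, or 66.7%, beside 21.9% of 2372 genes. Between 1 and 10 CPM, 3 of 24 members fell and 4 rose, or 12.5% and 16.7%. Of the 5018 genes tested in that range, 3.39% were called lower and 13.7% higher.

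**Figure D2:**
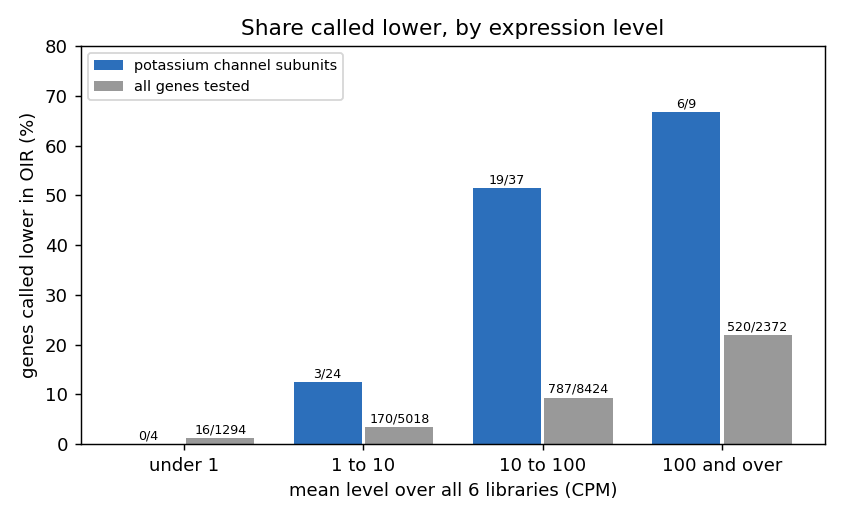
Percentage of genes called lower in OIR retina (vertical axis) by mean CPM over all 6 libraries (horizontal axis), for potassium channel subunits (blue) and all genes tested (grey), with the number called of the number tested above each bar. The blue bar reaches 51.4% against 9.34% between 10 and 100 CPM.

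Summed markers of rods and of bipolar, amacrine and horizontal cells were also lower in the OIR libraries, and those of vessel cells higher. Summed rod markers ranged from 36369.9 to 40566 CPM in OIR and 44872 to 47988 CPM in normal libraries, with 4 of 8 genes lower in edgeR. Cone markers summed to 831 to 984 CPM in OIR and 978 to 1089 CPM in normal libraries, which overlapped, with 2 of 7 lower. Bipolar markers summed to 1398 to 1468 CPM in OIR and 1887 to 1967 CPM in normal libraries, with 5 of 8 lower. Amacrine markers summed to 972 to 1040.5 CPM in OIR and 1288 to 1380.4 CPM in normal libraries, with 6 of 8 lower. Horizontal cell markers summed to 76.6 to 98.1 CPM in OIR and 155 to 181 CPM in normal libraries, with 2 of the 4 found lower. Ganglion cell markers summed to 1057 to 1154 CPM in OIR and 1000.1 to 1619 CPM in normal libraries, so these groups overlapped. Müller glia markers summed to 3573 to 4312 CPM in OIR and 4691 to 5492 CPM in normal libraries, with 4 of 8 lower and 1 higher. In the other direction, all 8 endothelial markers rose, with sums of 532 to 572 CPM in OIR and 222 to 289 CPM in normal libraries, as did 6 of 7 mural cell markers, with sums of 615 to 709 CPM in OIR and 236 to 267 CPM in normal libraries. Microglia and macrophage markers summed to 79.4 to 113 CPM in OIR and 43.3 to 54.9998 CPM in normal libraries, with 4 of 8 higher. Astrocyte markers summed to 297 to 381 CPM in OIR and 62.3 to 74.3 CPM in normal libraries. Of the 5, 3 were higher and 1, Slc39a12, was lower. Most of the OIR sum was Gfap, which averaged 262 CPM in OIR and 22.1 CPM in normal libraries. Pax2 did not pass in edgeR (log2 change 0.70, adjusted p of 0.234). Erythroid genes summed to 175 to 209.9 CPM in OIR and 60.3 to 90.3 CPM in normal libraries, with 4 of 5 higher. The part of these shifts in the channel genes was not tested, and in whole retina fewer cells of a type and less RNA per cell cannot be told apart. Summed lens genes, a sign of carried-over lens, stood at 5055 CPM in OIR 3 and between 6.05 and 336 CPM in the other libraries, and without OIR 3 the members called were 28 lower and 4 higher.

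**Figure D3:**
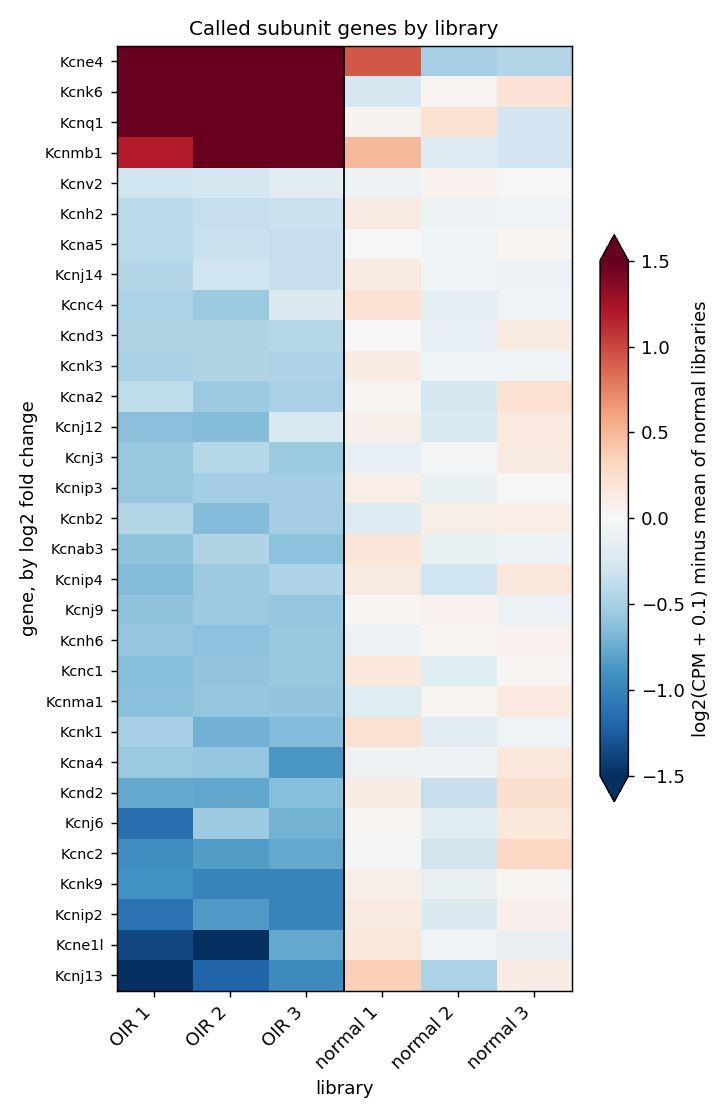
Level of 31 of the 33 called subunit genes (rows, ordered by log2 fold change) in each library (columns), drawn as log2(CPM + 0.1) minus the mean of the 3 normal libraries, with red above and blue below that mean and the colour scale saturated at both ends. The 27 lower genes drawn are blue in every OIR column, and the 4 higher ones, Kcne4, Kcnk6, Kcnq1 and Kcnmb1, are red in every OIR column.

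The summed level of the potassium channel genes per length of transcript was lower in OIR retina, and Kcnj14 and Kcnv2 were among the genes with the highest levels. To compare genes, CPM was divided by the gene length in the table, in kilobases. In CPM per kilobase, the 90 members together summed to 767, 791 and 795 in OIR libraries, against 996, 923 and 960.1 in normal libraries. All 3 OIR libraries were below all 3 normal libraries. Kcnj14, the inward rectifier Kir2.4, stood at 118 ± 5.9997 CPM per kilobase in OIR and 152 ± 12.3 in normal retina (SD, n = 3 per group). Kcnv2, which encodes the silent subunit Kv8.2, stood at 119 ± 5.68 CPM per kilobase in OIR and 141 ± 6.78 in normal retina. The 2 levels lay within their spread of each other in OIR retina. The cytoplasmic beta subunit gene Kcnab2 stood at 71.3 ± 0.4902 CPM per kilobase in OIR and 74.9 ± 10.6 in normal retina, and the single-span accessory subunit gene Kcne2 at 44.3 ± 1.55 CPM per kilobase in OIR and 42.04 ± 1.78 in normal retina. In CPM, Kcne2 had 75.3, 78.7 and 80.7 CPM in OIR libraries, against 75.4, 76.7 and 70.7 CPM in normal libraries, with overlapping groups and a log2 change of 0.07 (standard error 0.0724, adjusted p of 0.527). Kcnab2 had 395, 398 and 399.9 CPM in OIR libraries, against 485, 373 and 396 CPM in normal libraries, and its log2 change was −0.07 (standard error 0.0935, adjusted p of 0.647). The share of Kcne2 was 5.64 ± 0.0982 in OIR and 4.39 ± 0.281 in normal retina, in percent of the summed level.

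**Figure D4:**
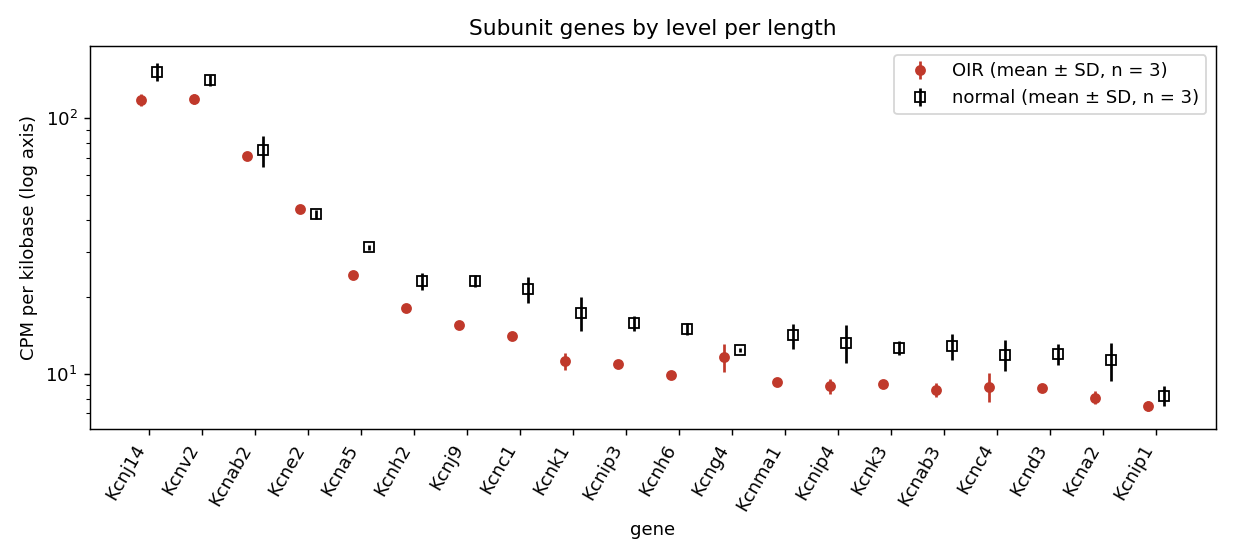
Level per length, in CPM per kilobase on a log axis, of 20 subunit genes in the order of their level over all libraries, as mean ± SD of 3 OIR (red circles) and 3 normal libraries (black squares). Kcnj14 and Kcnv2 stand above 100 in both groups, and the 2 groups lie close together for Kcnab2, Kcne2 and Kcng4.

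Kcnv2, the silent subunit gene of photoreceptors, fell slightly, and Kcnb2 also fell. Kv8.2 is part of the potassium channel of rod and cone inner segments, and in humans loss of KCNV2 causes a cone dystrophy with an altered rod response. Kcnv2 had 584, 601 and 640.4 CPM in OIR libraries, against 685, 754 and 721 CPM in normal libraries. The groups did not overlap, and the log2 change was −0.24 (standard error 0.0709, adjusted p of 0.035). Kcnv2 no longer passed under scaling by library totals (−0.20, adjusted p of 0.0673), with the replicate block (−0.24, adjusted p of 0.0895), without OIR 1 (−0.22, adjusted p of 0.159), without OIR 2 (−0.24, adjusted p of 0.114), without normal 2 (−0.21, adjusted p of 0.0558) or without normal 3 (−0.24, adjusted p of 0.0837). Kcnb2, encoding Kv2.2, had 16.3, 14.1 and 15.4 CPM in OIR libraries, against 19.3, 23.6 and 23.8 CPM in normal libraries. These groups did not overlap, and its log2 change was −0.54 (standard error 0.123, adjusted p of 0.0107); it did not pass without normal 3 (−0.49, adjusted p of 0.0548).

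All 6 tested genes of the Kv1 subfamily had negative log2 changes and 3 passed, or 50%, beside 8.73% of all genes tested called lower. Kv1 channels open at low voltage, in many neurons at the axon. Kcna2, encoding Kv1.2, had 102, 91.5 and 94.8 CPM in OIR libraries, against 136, 111 and 156 CPM in normal libraries. Every OIR library was below every normal one, and the log2 change was −0.49 (standard error 0.111, adjusted p of 0.0111). Kcna5, encoding Kv1.5, was the Kv1 gene with the highest level per kilobase, at 24.4 ± 0.607 CPM per kilobase in OIR and 31.2 ± 0.776 in normal retina. In CPM it had 67.8, 70.998 and 70.5 CPM in OIR libraries, against 90.05, 86.9 and 91.1 CPM in normal libraries, with tight replicates in both groups and a log2 change of −0.36 (standard error 0.06902, adjusted p of 0.00461). Kcna4, which encodes the rapidly inactivating Kv1.4, had 10.8, 10.6 and 8.64 CPM in OIR libraries, against 15.1, 15.1 and 17.8 CPM in normal libraries. It fell by 0.67 on the log2 scale (standard error 0.137, adjusted p of 0.00623). Kcna1 (log2 change −0.26), Kcna3 (−0.39) and Kcna6 (−0.32) did not pass, with adjusted p of 0.176, 0.145 and 0.0704. The genes lie in clusters: Kcna5, Kcna1 and Kcna6 are neighbours on chromosome 6 (mm10, 126532551 to 126740674), and Kcna3, Kcna2 and Kcna10 on chromosome 3 (107036169 to 107195721). Kcna2 did not pass without OIR 2 (−0.46, adjusted p of 0.0509) or without normal 3 (−0.37, adjusted p of 0.0568), and Kcna6 passed with DESeq2 (−0.33, adjusted p of 0.0469), with no filter (−0.32, adjusted p of 0.0161) or without normal 2 (−0.43, adjusted p of 0.0124).

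The Kv3 genes Kcnc1, Kcnc2 and Kcnc4 fell. Kv3 channels open at high voltage and close fast, which lets many fast-spiking neurons repolarize quickly. Kcnc1, encoding Kv3.1, had 129.95, 134 and 136 CPM in OIR libraries, against 224, 177 and 206 CPM in normal libraries. The OIR libraries lay close together and below every normal library, and the log2 change was −0.60 (standard error 0.0849, adjusted p of 0.000695). Kcnc2, encoding Kv3.2, had 36.1, 38.6 and 40.5 CPM in OIR libraries, against 67.5, 57.1 and 85.6 CPM in normal libraries. It was 1.82-fold lower in OIR retina, with a log2 change of −0.87 (standard error 0.1297, adjusted p of 0.00102). Kcnc4, encoding Kv3.4, had 31.1, 29.5 and 37.4 CPM in OIR libraries, against 50.4, 39.1 and 41.3 CPM in normal libraries. The groups did not overlap, and its log2 change was −0.42 (standard error 0.118, adjusted p of 0.0303). Kcnc4 did not pass with sex as a covariate (−0.41, adjusted p of 0.0618), without OIR 1 (−0.39, adjusted p of 0.118), without OIR 2 (−0.36, adjusted p of 0.115), without normal 1 (−0.30, adjusted p of 0.0675) or without normal 3 (−0.46, adjusted p of 0.071). Summed amacrine markers, 6 of 8 lower, fell in the same libraries, as did those of rods, bipolar cells, horizontal cells and Müller glia. The part of these cell types in the Kv3 values was not tested.

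Genes of the A-type Kv4 channel complex were lower in several of its parts. Kv4 pores carry a fast, subthreshold current, KChIP proteins (Kcnip genes) bind them in the cytoplasm as calcium sensors, and dipeptidyl peptidase-like proteins such as the product of Dpp6 bind them in the membrane. Among the pores, Kcnd2, encoding Kv4.2, had 14.7, 14.6 and 16.04 CPM in OIR libraries, against 27.2, 19.7 and 29.6 CPM in normal libraries. Its OIR values lay within a narrow range below all normal values, with a log2 change of −0.75 (standard error 0.149, adjusted p of 0.00523). Kcnd3, encoding Kv4.3, had 83.9, 83.97 and 85.2 CPM in OIR libraries, against 114, 105 and 126 CPM in normal libraries, and its log2 change was −0.44 (standard error 0.0796, adjusted p of 0.00301). Kcnd1, encoding Kv4.1, had 10.96, 12.7 and 10.99 CPM in OIR libraries, against 12.2, 13.6 and 10.7 CPM in normal libraries, which overlapped, with a log2 change of −0.07 (standard error 0.136, adjusted p of 0.76). Among the KChIP genes, Kcnip2 had 16.6, 19.8 and 17.8 CPM in OIR libraries, against 39.2, 30.7 and 37.7 CPM in normal libraries. It was 1.99-fold lower in OIR retina, with a log2 change of −0.99 (standard error 0.118, adjusted p of 0.000226). Kcnip3, whose product is also known as the transcriptional repressor DREAM, had 37.6, 39.2 and 39.3 CPM in OIR libraries, against 60.1, 52.3 and 55.6 CPM in normal libraries. Kcnip4 had 30.3, 32.4 and 34.5 CPM in OIR libraries, against 51.9, 38.6 and 53.2 CPM in normal libraries. Both fell, with log2 changes of −0.53 and −0.57 (adjusted p of 0.000917 and 0.00717), and the groups did not overlap for either gene. Kcnip1 did not pass, with 49.03, 44.8 and 45.5 CPM in OIR libraries, against 50.9, 46.2 and 55.6 CPM in normal libraries and a log2 change of −0.13 (standard error 0.0865, adjusted p of 0.331). The partner Dpp6 averaged 112 ± 8.64 CPM in OIR and 161 ± 16.04 CPM in normal retina (SD, n = 3 per group) and fell, with a log2 change of −0.53 (standard error 0.0885, adjusted p of 0.00205), while Dpp10 had a log2 change of −0.15 (standard error 0.125, adjusted p of 0.468). Of these complex genes, the 5 members called lower passed in every alternative run at a threshold of 0.05.

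**Figure D5:**
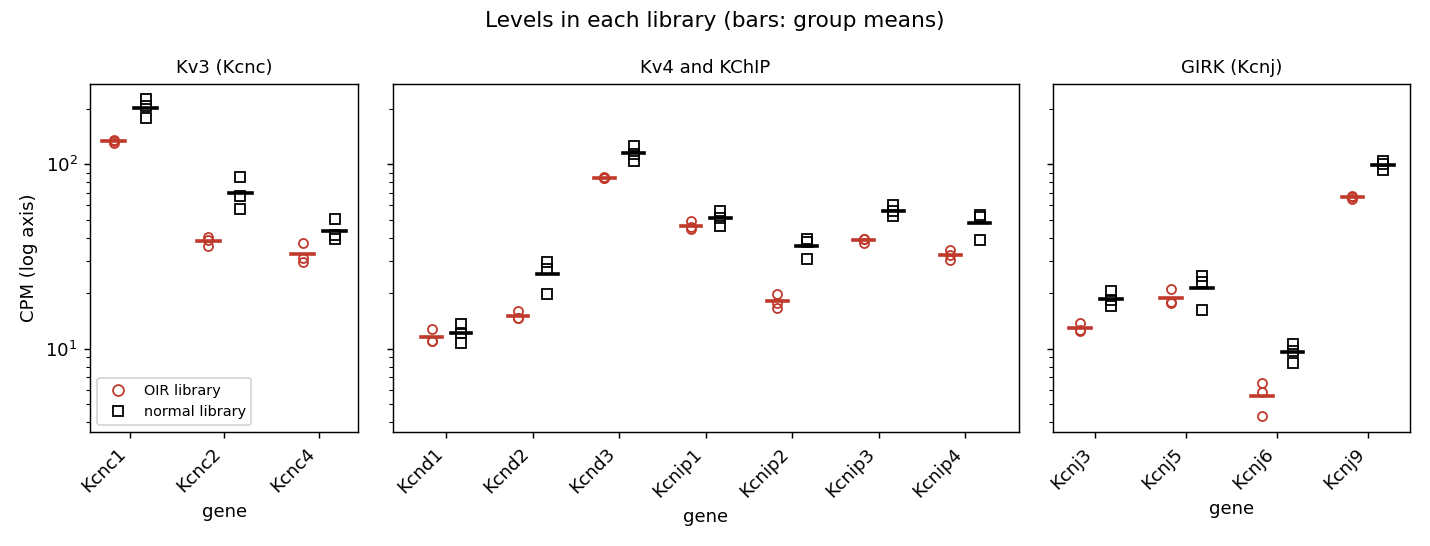
CPM on a log axis (vertical) of 3 Kv3 genes, the Kv4 and KChIP genes and the GIRK genes (panels; genes along the horizontal axis) in each OIR library (red circles) and each normal library (black squares), with bars at the group means. The circles lie below all squares for Kcnc1, Kcnc2 and Kcnc4, for Kcnd2, Kcnd3, Kcnip2, Kcnip3 and Kcnip4, and for Kcnj3, Kcnj6 and Kcnj9, and overlap them for Kcnd1, Kcnip1 and Kcnj5.

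Kcnv2 was the 1 silent modifier gene that passed in edgeR, of 10 tested. The share called lower was thus 10%, near the 8.73% of all genes tested. Kv5, Kv6, Kv8 and Kv9 subunits (Kcnf, Kcng, Kcnv and Kcns genes) form no channel alone and assemble with Kv2 subunits. Log2 changes were above 0 for 5 of the genes and below 0 for 5. Kcng4, encoding Kv6.4, had 44.03, 49.8 and 38.5 CPM in OIR libraries, against 47.8, 45.98 and 47.7 CPM in normal libraries, and its log2 change was −0.10 (standard error 0.09498, adjusted p of 0.535). Kcns2, encoding Kv9.2, had 12.2, 10.8 and 11.8 CPM in OIR libraries, against 12.3, 8.88 and 15.2 CPM in normal libraries, with a log2 change of −0.07 (standard error 0.181, adjusted p of 0.834) that turned to 0.12 without normal 3 and to 0.03 with sex as a covariate. Kcnf1 had 9.49, 11.6 and 8.697 CPM in OIR libraries, against 6.77, 8.45 and 6.69 CPM in normal libraries, and Kcng1 had 7.603, 7.72 and 7.64 CPM in OIR libraries, against 5.99, 6.33 and 5.27 CPM in normal libraries. In both genes every OIR library was above every normal library, but with log2 changes of 0.44 and 0.38 the adjusted p was 0.0881 and 0.103. With Kcns1, these were the 3 others whose unadjusted p was under 0.05. The other members were Kcng2, Kcng3, Kcns1, Kcns3 and Kcnv1, with log2 changes from −0.34 to 0.72.

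Among the Kcnh genes, those of the ERG channels Kcnh2 and Kcnh6 fell. ERG channels close slowly and damp repeated firing, and KCNH2 also sets the end of the action potential in human heart. Kcnh6, encoding Erg2, had 35.4, 34.5 and 35.7 CPM in OIR libraries, against 49.9, 53.9 and 55.5 CPM in normal libraries. The replicates differed little within either group, and the log2 change was −0.59 (standard error 0.0748, adjusted p of 0.00033). Kcnh2, encoding Erg1, had 85.2, 87.7 and 89.5 CPM in OIR libraries, against 122, 106 and 108 CPM in normal libraries, also without overlap, and its log2 change was −0.36 (standard error 0.0757, adjusted p of 0.00771). The third ERG gene, Kcnh7, had 20.8, 17.99 and 18.3 CPM in OIR libraries, against 16.5, 27.2 and 24.8 CPM in normal libraries, with wide normal values and a log2 change of −0.26 (standard error 0.169, adjusted p of 0.318). The EAG channel genes Kcnh1 and Kcnh5 had log2 changes of −0.12 and −0.10 (adjusted p of 0.535 and 0.62), and the ELK gene Kcnh8 one of 0.17. Both calls passed in all alternatives run at a threshold of 0.05.

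Of the Kcnq genes, Kcnq1 rose and Kcnq3 and Kcnq5 did not pass. Kcnq1 encodes Kv7.1, the pore of a slow current in heart and epithelia, where it works with Kcne subunits. It had 4.36, 6.49 and 5.17 CPM in OIR libraries, against 1.498, 1.703 and 1.16 CPM in normal libraries. All OIR values were well above the highest normal value, with a log2 change of 1.87 (standard error 0.255, adjusted p of 0.000565). Reads of the long antisense transcript Kcnq1ot1, which covers part of the gene, could enter the count, since the library kit in its standard form does not mark strand. Kcnq1ot1 shares 121 exonic bases, or 2.96% of the Kcnq1 length, and averaged 28.1 ± 5.65 CPM in OIR and 20.6 ± 7.07 CPM in normal retina (log2 change 0.45, adjusted p of 0.221). Kcnq3, a neuronal member, had 21.5, 18.2 and 19.3 CPM in OIR libraries, against 21.9, 18.9 and 24.4 CPM in normal libraries, which overlapped, with a log2 change of −0.15 (standard error 0.124, adjusted p of 0.459). Kcnq5 had a log2 change of 0.10 (adjusted p of 0.829).

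Of the 8 inward rectifier genes tested among the members, which leave out Kcnj2, Kcnj8 and Kcnj10, 6 fell. That is 75%, beside 8.73% of all genes tested called lower. Kcnj14, the inward rectifier with the highest level, had 303, 335 and 324 CPM in OIR libraries, against 449.8, 398 and 388 CPM in normal libraries. The groups did not overlap, and the log2 change was −0.36 (standard error 0.07696, adjusted p of 0.00782). Of the GIRK genes, whose channels open when G protein-coupled receptors release beta-gamma subunits, Kcnj9, encoding Kir3.3, had 65.1, 67.6 and 66.1 CPM in OIR libraries, against 100.4, 103 and 92.7 CPM in normal libraries. It fell with little spread among replicates, with a log2 change of −0.58 (standard error 0.07302, adjusted p of 0.00034). Kcnj3, encoding Kir3.1, had 12.5, 13.8 and 12.6 CPM in OIR libraries, against 17.1, 18.4 and 20.5 CPM in normal libraries. Kcnj6, encoding Kir3.2, had 4.302, 6.55 and 5.82 CPM in OIR libraries, against 9.77, 8.39 and 10.7 CPM in normal libraries. Both fell, with log2 changes of −0.53 and −0.79 (adjusted p of 0.0104 and 0.0122) and no overlap. Kcnj5, encoding Kir3.4, had 20.98, 17.9 and 17.8 CPM in OIR libraries, against 24.7, 16.2 and 23.02 CPM in normal libraries, which overlapped, with a log2 change of −0.17 (standard error 0.156, adjusted p of 0.49). Of the Kcnj3 length, 31.1% is shared with exons of the opposite-strand gene Gm26794, which held 29 counts in OIR and 60 in normal libraries, against 661 and 908 for Kcnj3.

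Among the other inward rectifiers, Kcnj13 had the largest fall of the 74 members, with a log2 change of −1.38 (standard error 0.365, adjusted p of 0.0228). It encodes Kir7.1 of the apical membrane of the pigment epithelium. The gene had 0.5304, 0.767 and 0.9402 CPM in OIR libraries, against 2.46, 1.34 and 2.06 CPM in normal libraries, which is 38 counts in OIR and 95 in normal libraries. Pigment epithelium markers fell in 4 of 5 cases, summing to 102 to 115 CPM in OIR and 182 to 304 CPM in normal libraries, and none was at 0. The part of carried-over epithelium in the Kcnj13 values was not tested. Of its length, 49.1% also overlaps exons of the opposite-strand gene Gigyf2, which averaged 115 ± 6.66 CPM in OIR and 119.7 ± 4.76 CPM in normal retina. Kcnj12, encoding Kir2.2, had 11.3, 11.1 and 15.04 CPM in OIR libraries, against 18.6, 14.96 and 19.5 CPM in normal libraries, and OIR 3 was slightly above normal 2, so these groups overlapped. Its log2 change was −0.50 (standard error 0.156, adjusted p of 0.0443). Kcnj11, which encodes a pore of ATP-sensitive channels, had a log2 change of −0.15 (standard error 0.149, adjusted p of 0.546). Kcnj12 did not pass under scaling by library totals (−0.46, adjusted p of 0.0575), with sex as a covariate (−0.48, adjusted p of 0.0935), without OIR 1 (−0.44, adjusted p of 0.152), without OIR 2 (−0.43, adjusted p of 0.146), without normal 1 (−0.46, adjusted p of 0.0858) or without normal 3 (−0.43, adjusted p of 0.172). Kcnj13 did not pass with sex as a covariate (−1.20, adjusted p of 0.0673), without OIR 1 (−1.19, adjusted p of 0.101), without OIR 2 (−1.41, adjusted p of 0.073), without normal 1 (−1.18, adjusted p of 0.0726) or without normal 3 (−1.34, adjusted p of 0.0878). Kcnj14 did not pass without OIR 1 (−0.33, adjusted p of 0.0513), Kcnj3 without normal 3 (−0.46, adjusted p of 0.0531) and Kcnj6 without normal 3 (−0.71, adjusted p of 0.068).

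Two-pore-domain genes, whose channels carry the background leak of potassium, had 3 falls and 1 rise among 9 tested. These are 33.3% lower and 11.1% higher, beside 8.73% and 11.1% over all genes tested. Kcnk9, encoding the acid-sensitive TASK3, had 27.3, 25.6 and 25.6 CPM in OIR libraries, against 54.5, 47.6 and 52.4 CPM in normal libraries. It was 1.97-fold lower in OIR retina with no overlap, and its log2 change was −0.98 (standard error 0.0819, adjusted p of 2.14e-05), the smallest adjusted p of all members. Kcnk3, encoding the related TASK1, had 35.8, 36.7 and 36.3 CPM in OIR libraries, against 54.2, 48.05 and 48.6 CPM in normal libraries, with a log2 change of −0.47 (standard error 0.0769, adjusted p of 0.00173). Kcnk1, encoding TWIK1, had 27.3, 23.4 and 24.5 CPM in OIR libraries, against 45.3, 34.1 and 36.9 CPM in normal libraries, with a log2 change of −0.63 (standard error 0.116, adjusted p of 0.00354). Against these, Kcnk6, which encodes TWIK2, a channel known from macrophages and vascular smooth muscle in mice, had 2.299, 2.36 and 2.23 CPM in OIR libraries, against 0.479, 0.608 and 0.707 CPM in normal libraries. The OIR libraries were nearly equal and all far above the normal ones, with a log2 change of 1.93 (standard error 0.312, adjusted p of 0.00162), or 3.81-fold. It rested on 117 counts in OIR and 29 in normal libraries. Microglia and macrophage markers, 4 of 8 higher, rose in the same libraries, and their part in Kcnk6 was not tested. Kcnk12 had 5.01, 5.07 and 5.05 CPM in OIR libraries, against 7.01, 5.84 and 8.04 CPM in normal libraries, without overlap, but its log2 change of −0.46 (standard error 0.172, adjusted p of 0.0869) did not pass. Kcnk13, which encodes the microglial channel THIK1, had 1.12, 0.767 and 1.47 CPM in OIR libraries, against 0.539, 0.851 and 0.836 CPM in normal libraries, which overlapped, and a log2 change of 0.59 (standard error 0.389, adjusted p of 0.334). Kcnk2, Kcnk4 and Kcnk10, of the mechanically gated TREK and TRAAK group, had log2 changes of −0.22, −0.28 and −0.08. The 4 calls passed in all alternatives run at a threshold of 0.05.

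Of the calcium- and sodium-activated channel genes, Kcnma1 alone was called by edgeR among 7 tested. The share called lower was 14.3%, beside 8.73% of all genes tested. It encodes the pore of the large-conductance BK channel, which limits transmitter release and shapes firing in neurons. Kcnma1 had 155, 159 and 158 CPM in OIR libraries, against 211, 245 and 264 CPM in normal libraries. All OIR values were well below the lowest normal value, and the log2 change was −0.61 (standard error 0.0817, adjusted p of 0.000524). The small-conductance genes Kcnn1, Kcnn2 and Kcnn3 had log2 changes of −0.08, −0.26 and −0.31, with adjusted p of 0.725, 0.15 and 0.351. Kcnn2 had 16.03, 16.6 and 16.3 CPM in OIR libraries, against 21.5, 17.03 and 20.3 CPM in normal libraries, without overlap, and passed without normal 2 (−0.36, adjusted p of 0.04997). The sodium-activated channel gene Kcnt1 had a log2 change of −0.09 (adjusted p of 0.653), and Kcnt2 and Kcnu1, with at most 3.09 CPM in any library, did not pass either.

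Accessory subunits held 5 falls and 2 rises among 14 tested. These are 35.7% lower and 14.3% higher, beside 8.73% and 11.1% over all genes tested, so the share of rises was near that of all genes. Besides the KChIP genes, Kcnab3, a cytoplasmic beta subunit gene of Kv1 channels, had 23.99, 26.7 and 23.8 CPM in OIR libraries, against 41.6, 33.9 and 34.7 CPM in normal libraries. The groups did not overlap, and the log2 change was −0.57 (standard error 0.104, adjusted p of 0.0034). Its relative Kcnab1 had a log2 change of −0.24 (standard error 0.0809, adjusted p of 0.06). Kcne1l, on the X chromosome, belongs to the single-span subunits that slow or suppress Kv channels, and had 4.89, 3.77 and 7.46 CPM in OIR libraries, against 14.3, 12.3 and 11.8 CPM in normal libraries. It was 2.38-fold lower in OIR retina, with a log2 change of −1.25 (standard error 0.2196, adjusted p of 0.00268). Kcne4, whose product inhibits several Kv channels, had 1.65, 2.06 and 2.94 CPM in OIR libraries, against 0.659, 0.182 and 0.193 CPM in normal libraries. All OIR values were above all normal values, of which normal 1 was the highest. Its log2 change of 2.65 (standard error 0.482, adjusted p of 0.00329) was the largest among the members, and it rested on 113 counts in OIR and 17 in normal libraries. On leaving out 1 library it ranged from 2.34 without normal 2 to 3.51 without normal 1, and passed each time. Kcnmb1 encodes the beta1 subunit that raises the calcium sensitivity of BK channels in smooth muscle, and had 1.41, 2.95 and 1.94 CPM in OIR libraries, against 0.839, 0.487 and 0.4501 CPM in normal libraries. It rose 3.503-fold, with a log2 change of 1.81 (standard error 0.405, adjusted p of 0.01), on 107 counts in OIR and 29 in normal libraries. Mural cell markers, 6 of 7 higher, rose in the same libraries, and their part in Kcnmb1 was not tested. Kcnmb1 did not pass without OIR 2 (1.48, adjusted p of 0.0551) or without normal 3 (1.65, adjusted p of 0.0586). The neuronal BK subunit genes Kcnmb2 and Kcnmb4 had log2 changes of −0.37 and −0.23 (adjusted p of 0.481 and 0.515). Kcnrg, taken in by its symbol, encodes a soluble regulator of Kv channels and not a channel subunit, and had a log2 change of −0.36 (standard error 0.459, adjusted p of 0.635).

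Promoter sequences are shown for members with steep changes, to set rises beside falls. They are the 250 bases before the start of transcription in RefSeq (GRCm38.p6, the assembly of mm10), which gave a window for 65 of the 90 members, for 2 of the 5 that rose and for 21 of the 28 that fell. Kcnk6 and Kcnq1, which rose more than Kcnmb1, had none. The 3 members with the largest falls are shown with those 2. Capitals mark ACGTG, the core of the element bound by hypoxia-inducible factors, on either strand (CACGT on the strand printed), and a match is a description of letters only. The windows lie at chr1:78816661-78816910, plus strand, for Kcne4, chr11:33962763-33963012, plus strand, for Kcnmb1, chr19:45816064-45816313, minus strand, for Kcnip2, chrX:142306199-142306448, minus strand, for Kcne1l, and chr1:87394730-87394979, minus strand, for Kcnj13, and read 5′ to 3′ on the strand of the gene.
Kcne4: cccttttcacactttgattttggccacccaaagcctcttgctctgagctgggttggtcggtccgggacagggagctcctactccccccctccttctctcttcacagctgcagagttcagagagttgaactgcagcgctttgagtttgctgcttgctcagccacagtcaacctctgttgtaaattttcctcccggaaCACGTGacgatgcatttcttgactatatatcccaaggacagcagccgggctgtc
Kcnmb1: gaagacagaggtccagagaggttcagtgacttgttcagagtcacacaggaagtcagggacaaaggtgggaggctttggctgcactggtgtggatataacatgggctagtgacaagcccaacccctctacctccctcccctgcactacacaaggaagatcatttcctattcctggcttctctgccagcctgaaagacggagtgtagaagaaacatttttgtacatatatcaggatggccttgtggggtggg
Kcnip2: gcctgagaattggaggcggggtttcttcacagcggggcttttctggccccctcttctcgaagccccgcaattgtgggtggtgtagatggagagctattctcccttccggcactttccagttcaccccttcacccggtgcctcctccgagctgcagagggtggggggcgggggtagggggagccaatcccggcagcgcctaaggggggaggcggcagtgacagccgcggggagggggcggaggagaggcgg
Kcne1l: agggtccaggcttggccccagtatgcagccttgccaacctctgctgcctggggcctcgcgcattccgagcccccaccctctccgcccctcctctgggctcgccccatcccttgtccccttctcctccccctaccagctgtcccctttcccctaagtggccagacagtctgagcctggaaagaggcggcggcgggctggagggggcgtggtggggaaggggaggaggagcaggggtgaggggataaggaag
Kcnj13: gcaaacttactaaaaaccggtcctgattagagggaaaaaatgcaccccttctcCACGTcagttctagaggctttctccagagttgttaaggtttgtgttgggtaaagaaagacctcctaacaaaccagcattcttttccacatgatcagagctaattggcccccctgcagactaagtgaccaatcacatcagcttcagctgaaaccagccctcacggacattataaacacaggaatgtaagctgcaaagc
The Kcne4 window holds the letters on both strands, overlapping in the palindrome CACGTG, Kcnj13 holds them once, and the other 3 do not hold them. For Kcne4 the RefSeq start lay 153 bases inside the gene as placed with the counts, and its CACGTG lies within that stretch. For Kcne1l it lay 96 bases inside, and for Kcnip2, Kcnmb1 and Kcnj13 within 2 bases of the gene's start there. Among the other falls the distance reached 239248 bases, for Kcnip4. Of all 32851 RefSeq windows of this length, 16.6% hold ACGTG on either strand. Among the members it was 1 of 2 that rose, 2 of 21 that fell and 4 of 28 that were not called.

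Genes of potassium channel complexes without a Kcn symbol gave 4 falls and 1 rise among 15 tested of 16 listed. Over all genes tested, 8.73% were called lower and 11.1% higher. The median log2 change of the 15 was −0.29, beside 0.01 over all genes tested. Besides Dpp6, Amigo1, which encodes an auxiliary protein of Kv2 channels, averaged 55.6 ± 2.47 CPM in OIR and 74.2 ± 8.56 CPM in normal retina (SD, n = 3 per group), with a log2 change of −0.42 (standard error 0.0923, adjusted p of 0.00945). Cntnap2, whose product clusters Kv1 channels beside the node of Ranvier, had a log2 change of −0.29 (standard error 0.0756, adjusted p of 0.0228). Hcn3, of the hyperpolarization-activated channels, had a log2 change of −0.44 (standard error 0.109, adjusted p of 0.0167). The rise was in Abcc9, the sulphonylurea receptor of ATP-sensitive channels in muscle and mural cells, which averaged 43.3 ± 5.59 CPM in OIR and 22.5 ± 2.58 CPM in normal retina, with a log2 change of 0.94 (standard error 0.117, adjusted p of 0.000309). Abcc8, its counterpart in neurons and pancreatic beta cells, did not pass, with a log2 change of −0.24 (standard error 0.123, adjusted p of 0.215). Members known from vascular, glial and immune cells in other tissues went in both directions. Of 7, Kcnk6 and Kcnmb1 rose, Kcna5 fell, Kcna3, Kcnn3 and Kcnk13 did not pass, and Kcnn4 was not tested; the median log2 change of the 6 tested was 0.14.

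The 16 members that were not tested had few counts. Kcnk16 and Kcnk18 were at 0 in all 6 libraries, and 5 members had at most 10 counts in all, these 2 included. In 6, at least 20 counts were summed over the libraries. Kcnk5, encoding the alkaline-activated TASK2, had 25 counts in OIR and 3 in normal libraries, a ratio of 7.96 with a 95% Clopper-Pearson interval of 2.43 to 41.2. Kcna7 had 38 counts in OIR and 7 in normal libraries, a ratio of 5.19 (2.29 to 13.8). Kcnj15, encoding Kir4.2, had 28 counts in OIR and 7 in normal libraries, a ratio of 3.82 (1.63 to 10.4). Kcnj16, which encodes the Kir5.1 subunit that joins glial Kir4.1, went the other way, with 2 counts in OIR and 26 in normal libraries, a ratio of 0.0735 (0.00845 to 0.294). In these 4 genes no OIR library overlapped a normal one, but the share of all genes with so few counts that do the same was not counted. All 7 normal counts of Kcna7 came from normal 2, at 0.426 CPM against 0.531 CPM in OIR 2. Kcnmb3, with 7 counts in OIR and 1 in normal libraries, and Kcnj1, with 3 in OIR and 9 in normal libraries, did not overlap either. Kcnj4 had 20 counts in OIR and 23 in normal libraries, and Kcnn4 had 9 in OIR and 12 in normal libraries. These intervals cover counting error only and say nothing of the spread between animals.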

How the data were processed

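Libraries came from the NEBNext Ultra RNA kit after TRIzol extraction, per the labels' protocols. The authors deposited raw read counts per gene beside the gene length, a column of another unit. The submitters' processing notes list mm10 and, without roles, DESeq2 1.20.0, featureCounts 1.5.0-p3, HISAT2 2.0.5, fastp and CASAVA 1.8; annotation release and strand setting: not given in the sources used here. OIR columns were matched to samples by group, day and number, and the columns without OIR in their name to the normal sample of that number. Each library was taken as 1 replicate, since any pair within a group had a chi-square of 7.20 to 23.1 per degree of freedom. No label names an animal, so the p-values rest on the spread between libraries, which may be technical.

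The test was edgeR 4.0.16 (R 4.3.3) with the quasi-likelihood fit, TMM scaling, filterByExpr (minimum count 10, total 15), all 6 libraries, no covariate, and Benjamini-Hochberg adjustment over 17108 genes at 0.05. Standard errors are the log2 change divided by the square root of F. Alternatives were DESeq2 1.42.0, limma-voom (limma 3.58.1), median-of-ratios and library-total scaling, no filter, a filter of 1 CPM in 3 libraries, the replicate block, sex of the libraries as a covariate, a threshold of 0.01 and leaving out each library. The tests were checked on simulated counts. Exon overlaps came from GENCODE vM21. Members and lists were chosen with earlier results of these data known. Named were all called members, the 3 with the highest CPM per kilobase in each subfamily, and the vascular and photoreceptor lists, except some genes that are not reported here or drawn in the figures, though counts include them; the others named were chosen after their values were seen.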

Additional observations from a re-analysis of the deposited data

How the results depend on the processing

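The count of lower members was 20 to 30 over the alternatives with the threshold at 0.05 and 19 at 0.01, against 28 in the fit reported. The count of higher members was 5, and 3 to 6 on leaving out each library: it was 3 without OIR 2 and 3 without normal 3, each time without Kcnmb1. It was 4 at 0.01, 4 with the replicate block and 7 with no filter. The median log2 change of the tested members ranged from −0.28 to −0.20. Of the 33 called members, 21 passed in every alternative at 0.05 and 12 did not in at least 1, and none changed sign. Among members not called, some changed sign on leaving out 1 library: log2 changes ranged from −0.149 to 0.0484 for Kcnab2 (above 0 without normal 1), −0.157 to 0.0109 for Kcnd1 (above 0 without normal 2), −0.179 to 0.00794 for Kcnh5 (above 0 without normal 3), −0.195 to 0.0168 for Kcnn1 (above 0 without normal 1), −0.253 to 0.124 for Kcns2 (above 0 without normal 3, and 0.0311 with sex as a covariate) and −0.222 to 0.501 for Kcnu1 (below 0 without normal 1 and, at −0.00166, without normal 2). The cause was not tested. With the replicate number as a block, 27 members were lower; deviations of same-numbered libraries correlated at 0.0612, −0.164 and 0.0740, OIR 1 correlated best with normal 2, and the numbers were not taken to pair samples. Scaling by library totals moved the median of all genes to 0.0559 and left 26 lower and 5 higher members. Genes with few counts, such as Kcne4, Kcnmb1 and Kcnj13, are measured least precisely.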

Other observations

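Replicates of the potassium channel genes were closer in OIR than in normal retina, as were those of most other well-expressed genes. Over the 46 members with a mean of at least 10 CPM, the median coefficient of variation of CPM was 5.71% among OIR libraries and 11.6% among normal libraries, and it was higher in normal libraries for 40 of them. Over the 10750 other genes at that level, the medians were 5.58% among OIR libraries and 8.18% among normal libraries. The coefficient was higher in normal libraries for 7303 of these genes. Of the 28 members called lower, normal 2 held the lowest of the normal values for 19, and normal 1 and normal 3 held the highest for 13 each. The same order was not counted over all genes, so it cannot be read as particular to these members. By Xist and Y-linked counts, OIR libraries were 2 female and 1 male, and normal libraries 1 female and 2 male.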
